A study of Rattus norvegicus with 9 samples.

Results

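The genes described here carry the signal of the adrenal stress hormones and of corticotropin-releasing hormone (CRH) into the frontal cortex of adult male Wistar rats. They are 8 genes chosen by name, and all 8 were found among the 37209 genes of the count table. They comprise the glucocorticoid receptor Nr3c1, the mineralocorticoid receptor Nr3c2, the receptor co-chaperones Fkbp5 and Fkbp4, the enzyme Hsd11b1, the peptide Crh, its receptor Crhr1 and its binding protein Crhbp. RNA depleted of rRNA had been sequenced from 9 rats aged 14 weeks, 3 per group, in groups named Control, MS and MS+EA. Control litters stayed undisturbed with their mothers until weaning, and MS (maternal separation) litters lost the mother for 4 h a day from postnatal day (PND) 1 to PND 21. MS+EA rats were separated in the same way and later received electroacupuncture (EA) at the acupoints GV20 and GV29, every other day from PND 61 to PND 81. By the study's methods, EA was given under isoflurane and Control and MS rats received the anaesthesia alone. The treatment text of the sample labels can also be read as including Control and MS rats in the acupuncture, so what sets MS+EA rats apart from MS rats rests on the methods. No sham EA rats were sequenced. The sources used here do not say which rats shared a litter, so p values measure the spread between these rats only. The question behind the comparisons is whether early separation and later EA left a trace on the cortical stress hormone system.

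Corticosterone from the adrenal cortex crosses into the brain and binds a receptor pair, of which the mineralocorticoid receptor has the higher affinity and the glucocorticoid receptor fills mainly at stress and at the daily hormone peak. The unbound receptor sits in a chaperone complex with Hsp90, in which Fkbp5 lowers hormone affinity and Fkbp4 favours transport to the nucleus. Fkbp5 is itself switched on by the activated receptor and closes a short feedback loop. CRH drives the pituitary and adrenal response from the hypothalamus, while in the cortex it is a peptide of local interneurons that acts on Crhr1 and is held back by Crhbp.

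Library totals ran from 12479905 to 19007907 counts, and each MS+EA total was below every Control and MS total. Genes typed as lncRNA held 0.798% to 0.908% of the counts in Control rats, 0.852% to 0.964% in MS rats and 0.976% to 1.14% in MS+EA rats. Expression is given as CPM, read counts relative to library size after scaling by edgeR's TMM method. A gene was called at a Benjamini-Hochberg adjusted p under 0.05 in edgeR's quasi-likelihood test with a fold change above 1.5, over the 16837 genes tested. All 8 genes passed the filter on low counts and were tested. None of the 8 passed both thresholds in any of the 3 comparisons, against 0.0238% of all tested genes in MS relative to Control rats, 0.0178% in MS+EA relative to MS rats and 1.37% in MS+EA relative to Control rats. An unadjusted p under 0.05 was met by 1 of the 8 in each comparison, where the shares of all tested genes were 10.6%, 12.4% and 22.5%. None of the alternative tests, scalings, filters or omissions of a rat moved any of the 8 past both thresholds.

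Taken over the 8 genes, 6 had a fitted log2 fold change above 0 in MS relative to Control rats, and 2 had one in each of the comparisons of MS+EA rats. The shares above 0 among all tested genes were 49.7%, 50.1% and 50.9%. Median log2 fold changes of the 8 genes were 0.10, -0.10 and -0.08, in a table whose overall medians were -0.0014, 0.00059 and 0.0055. The ranges of MS and Control rats did not overlap for 3 of the 8 genes, of which Nr3c1 and Nr3c2 were higher and Crhr1 lower in MS rats, beside 10% and 7.53% of all tested genes. Between MS+EA and MS rats 1 gene, Hsd11b1, was lower without overlap (9.6% of all tested genes) and 0 were higher (8.27%). Between MS+EA and Control rats 1 gene, Nr3c1, was higher without overlap (13%) and 0 were lower (12.9%). The comparisons of MS and MS+EA rats with Control rats share the same Control rats, and both comparisons of MS rats share the MS rats.

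Nr3c1, the glucocorticoid receptor, was the member with the clearest difference between groups. The Control rats A1, A2 and A6 had 147, 147 and 128 CPM. Among the MS rats, B3 had 168, B4 had 177 and B6 had 181 CPM, and the MS+EA rats C3, C10 and C16 had 184, 190 and 178 CPM. Each of the 6 separated rats thus stood above each Control rat, whereas the MS and MS+EA ranges overlapped. These values rest on 2050 to 3010 counts per rat. Nr3c1 rose 1.31-fold in MS+EA relative to Control rats (log2 fold change 0.39, standard error (SE) 0.0708, edgeR adjusted p = 0.0131, n = 3 per group). That rise met the adjusted p alone, as did 5.4% of the tested genes, and stayed below the fold change of 1.5. MS relative to Control rats gave a value of 0.32 on the same scale (SE 0.0706, edgeR adjusted p = 0.129), which ranked 79 of the 16837 genes by p. Between MS+EA and MS rats the log2 fold change was 0.07, with a 95% interval from -0.09 to 0.22 (edgeR adjusted p = 0.734).

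The rise in MS+EA relative to Control rats had an adjusted p under 0.05 in all 18 alternative settings, with log2 fold changes between 0.33 and 0.42 when each rat was left out in turn. For MS relative to Control rats 3 of 18 settings gave an adjusted p under 0.05, which were DESeq2 (0.0111), edgeR's likelihood ratio test (0.0187) and a filter of at least 1 count (0.0305). Over all settings for the MS comparison the adjusted p lay between 0.0111 and 0.377. The 8 vascular markers summed to 172 to 190 CPM in Control rats, 213 to 249 CPM in MS rats and 182 to 227 CPM in MS+EA rats, and the part of this in the values of Nr3c1 was not tested. The part of library size and lncRNA share was not tested either. In tissue RNA, fewer cells of a type and less RNA per cell cannot be told apart.

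RefSeq lists more than 1 start for Nr3c1 in the rat, and the promoter of this gene is a place where maternal care has been studied through methylation of CG dinucleotides. Its windows are shown because Nr3c1 is the member on which the results turn, and those of Fkbp5 and Crhbp because they bound the range of CG content among the members. Each window runs from 250 bases before a start to 50 bases after it in GRCr8, a later assembly than the Rnor_6.0 of the counts, and capitals mark CG dinucleotides.
Nr3c1, chr18:31613390-31613689, minus strand: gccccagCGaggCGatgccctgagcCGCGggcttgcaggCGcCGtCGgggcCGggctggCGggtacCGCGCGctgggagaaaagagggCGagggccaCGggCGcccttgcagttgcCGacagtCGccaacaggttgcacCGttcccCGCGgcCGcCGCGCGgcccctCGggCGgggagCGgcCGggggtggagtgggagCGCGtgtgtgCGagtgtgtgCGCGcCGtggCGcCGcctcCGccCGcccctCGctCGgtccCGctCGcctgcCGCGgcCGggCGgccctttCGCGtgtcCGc
Nr3c1, chr18:31614170-31614469, minus strand: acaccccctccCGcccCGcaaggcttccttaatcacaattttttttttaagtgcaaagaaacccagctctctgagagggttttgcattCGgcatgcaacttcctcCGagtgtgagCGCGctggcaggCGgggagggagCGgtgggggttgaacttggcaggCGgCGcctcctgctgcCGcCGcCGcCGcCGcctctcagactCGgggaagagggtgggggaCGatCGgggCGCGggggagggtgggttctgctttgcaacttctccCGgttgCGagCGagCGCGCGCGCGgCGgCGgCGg
Fkbp5, chr20:6543506-6543805, minus strand: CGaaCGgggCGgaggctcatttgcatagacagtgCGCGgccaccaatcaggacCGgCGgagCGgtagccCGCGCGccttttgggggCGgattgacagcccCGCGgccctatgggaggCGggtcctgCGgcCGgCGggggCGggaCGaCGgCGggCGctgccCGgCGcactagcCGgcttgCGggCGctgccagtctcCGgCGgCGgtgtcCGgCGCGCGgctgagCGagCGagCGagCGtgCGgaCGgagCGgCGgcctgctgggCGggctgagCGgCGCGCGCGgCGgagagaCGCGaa
Crhbp, chr2:28439397-28439696, minus strand: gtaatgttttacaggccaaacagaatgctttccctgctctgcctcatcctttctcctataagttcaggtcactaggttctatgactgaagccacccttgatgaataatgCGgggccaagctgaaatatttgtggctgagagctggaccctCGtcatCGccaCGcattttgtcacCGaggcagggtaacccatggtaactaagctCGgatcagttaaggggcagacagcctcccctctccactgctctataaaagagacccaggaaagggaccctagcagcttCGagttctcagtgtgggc

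The first Nr3c1 window holds 49 CG dinucleotides at 79% GC and the other 31 at 66% GC, while the median of the 33469 RefSeq windows is 7. Fkbp5 holds 52, more than 99.5% of the windows, and Crhbp holds 7. The full glucocorticoid response element, made of AGAACA, a gap of NNN and the reverse complement of AGAACA, was found in 0 of the 7 windows of the 5 members that have one, and in 0.0149% of all windows. The single arm AGAACA, which the full element contains, was likewise in 0 of the 7, against 20.7% of all windows. The windows of Crhr1 overlap over most of their length, so the 7 are not all separate sequences. The Egr motif GCGNGGGCG was in the Fkbp5 window and in 4.98% of all windows, the TATA box TATAAA in the Crhbp window and in 14.2%, and the heat shock motif GAANNTTC in the Fkbp4 window and in 8.59%. The cAMP response element TGACGTCA was in 0 of the 7 windows and in 1.83% of all. Both strands were searched. The matches describe letters only, since neither binding nor methylation was measured.

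Nr3c2, the mineralocorticoid receptor, differed little between the groups. Its values were 54.1, 51.5 and 49.6 CPM in the Control rats, 56.2, 55.7 and 54.8 CPM in the MS rats and 50.4, 57.0 and 49.7 CPM in the MS+EA rats. The MS rats lay within a narrow band just above the Control range, and the MS+EA rats spread over both. Its log2 fold change between MS and Control rats was 0.10, with a 95% interval from -0.06 to 0.27 (edgeR adjusted p = 0.676). The interval was -0.25 to 0.08 in MS+EA relative to MS rats and -0.15 to 0.19 in MS+EA relative to Control rats.

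The balance of the receptor pair was followed as the ratio of Nr3c2 to Nr3c1 counts within each rat, which needs no scaling between libraries. It is not a ratio of receptor amounts, since the lengths of the counted transcripts are not known. Control rats had ratios of 0.368, 0.351 and 0.389, MS rats of 0.335, 0.314 and 0.303, and MS+EA rats of 0.274, 0.301 and 0.280. The group means were 0.369 ± 0.0190 (SD, n = 3), 0.317 ± 0.0163 (SD, n = 3) and 0.285 ± 0.0141 (SD, n = 3). No rat of one group reached into the range of another. The gap between the lowest MS rat and the highest MS+EA rat was only from 0.303 to 0.301. How many other pairs of genes show such an order was not counted, and the ratio was not tested. It draws on the same Nr3c1 counts as the rise described above. The log2 fold changes of Nr3c2 itself were 0.10 and 0.02 in MS and MS+EA relative to Control rats.

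**Figure D1:**
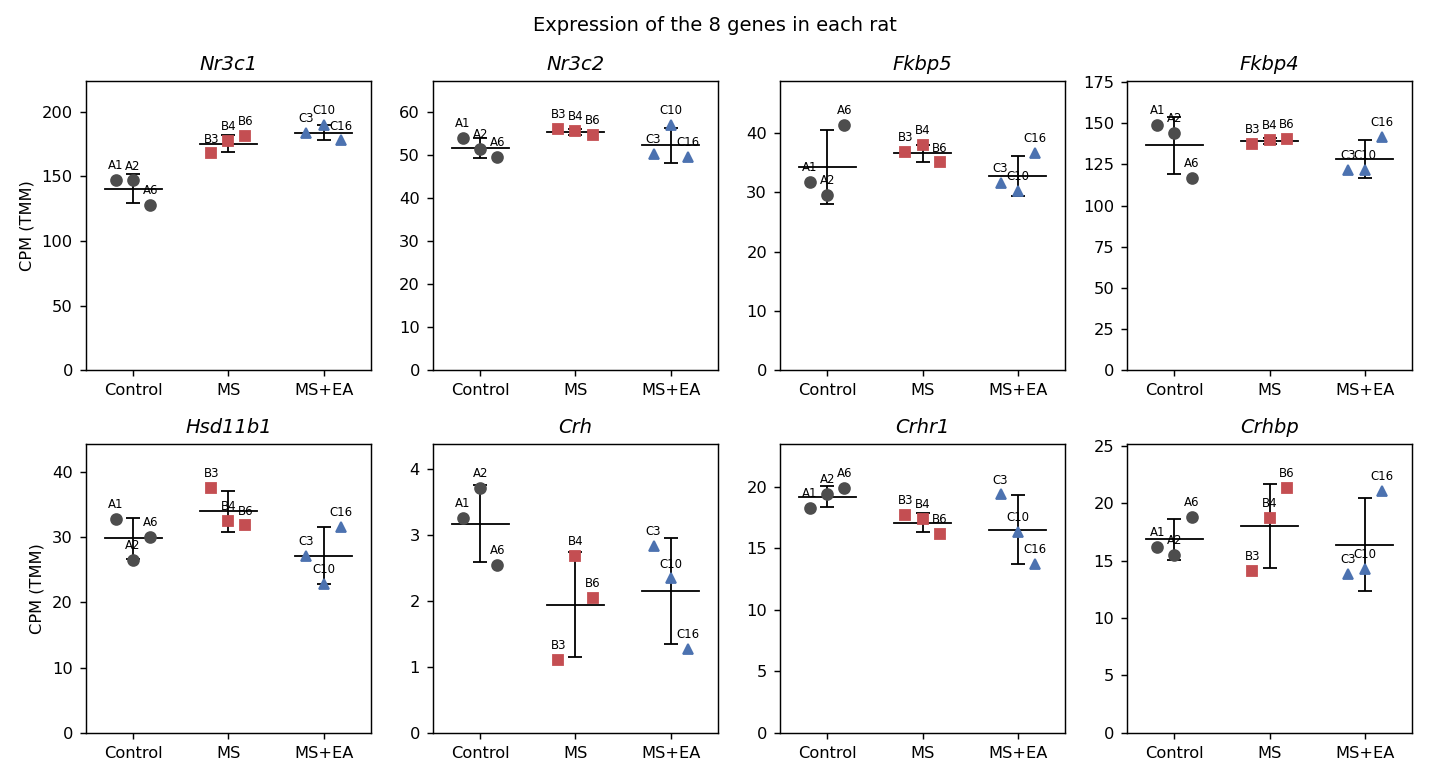
Expression of each of the 8 genes in CPM on a linear axis from 0, by group, with 1 labelled point per rat and a line at the mean with an error bar of 1 SD over 3 rats. Nr3c1 is at 128 to 147 CPM in the Control rats and at 168 to 190 CPM in the 6 separated rats, while Crh stays below 4 CPM in every rat.

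**Figure D2:**
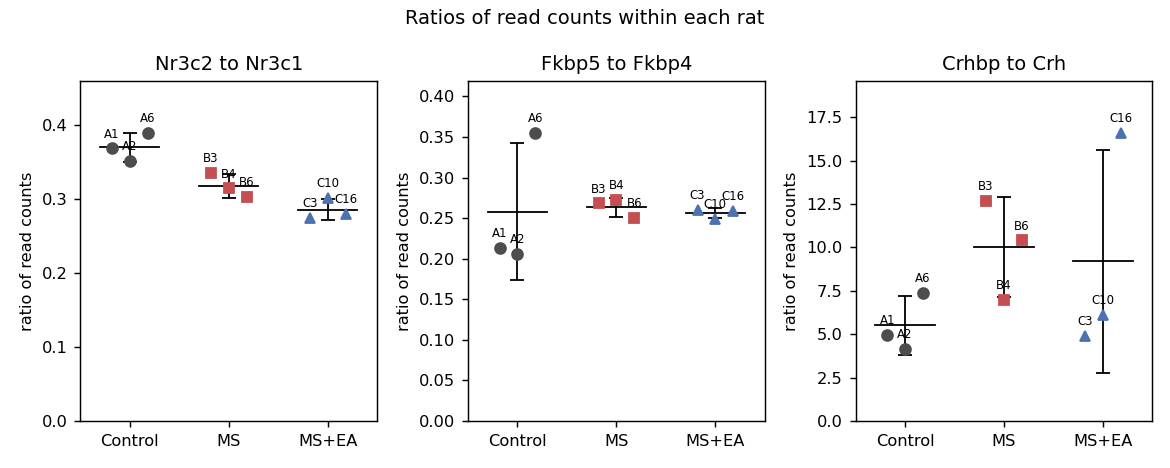
Ratios of read counts within each rat for Nr3c2 to Nr3c1, Fkbp5 to Fkbp4 and Crhbp to Crh, with the mean ± SD of 3 rats. The first ratio steps down from 0.369 to 0.317 and 0.285 over the group means, the Control rat A6 stands apart in the second at 0.355, and the MS+EA rat C16 in the last at 16.6.

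Fkbp5, the inducible co-chaperone, varied more between the Control rats than between the groups. It had 31.7, 29.6 and 41.4 CPM in the Control rats A1, A2 and A6, 36.8, 38.0 and 35.1 CPM in the MS rats and 31.6, 30.3 and 36.7 CPM in the MS+EA rats. The highest value of all 9 rats thus belonged to A6, and the lowest to A2 of the same group. The log2 fold change of Fkbp5 was 0.10 between MS and Control rats (95% interval -0.17 to 0.36, edgeR adjusted p = 0.826) and -0.16 in MS+EA relative to MS rats (95% interval -0.42 to 0.11, edgeR adjusted p = 0.633). Without A6 the first of these became 0.25 (edgeR adjusted p = 0.545), and without A2 it became -0.00079.

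Fkbp4, the co-chaperone that favours nuclear transport, had 149, 144 and 117 CPM in the Control rats, 137, 140 and 141 CPM in the MS rats and 122, 122 and 141 CPM in the MS+EA rats. Here A6 was the lowest rat of all, so that its ratio of Fkbp5 to Fkbp4 counts was 0.355 against 0.206 to 0.272 in the other 8 rats. The log2 fold changes of Fkbp4 were 0.03 in MS relative to Control rats (95% interval -0.17 to 0.23) and -0.12 in MS+EA relative to MS rats (95% interval -0.32 to 0.08).

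The rat A6 also stood apart in other genes that the glucocorticoid receptor induces. Of 20 such genes listed, 18 were tested, and 17 of these 18 were highest in A6 among the Control rats, compared with 32.9% of all tested genes. Over all 9 rats 13 of the 18 were highest in A6, compared with 10.9% of all tested genes. Sgk1, a kinase that regulates ion channels, had 68.4, 83.1 and 142 CPM in A1, A2 and A6 and 59.9 to 104 CPM in the separated rats. The clock gene Per1 had 80.2, 101 and 170 CPM, and Tsc22d3, which encodes the anti-inflammatory protein GILZ, had 43.5, 48.7 and 80.7 CPM in these Control rats. Sgk1, Per1 and Tsc22d3 were singled out after their values were seen. The median of the 18 genes stood 0.48 above the mean of the 9 rats in A6 on the log2 scale, with Fkbp5 at 0.27 above its own mean, and 0.38 below it in C10, with Fkbp5 at 0.18 below.

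Between the groups, 0 of the 18 induced genes passed both thresholds in any comparison. At an unadjusted p under 0.05 there were 1 higher and 2 lower in MS relative to Control rats, 1 higher and 1 lower in MS+EA relative to MS rats, and 0 higher and 4 lower in MS+EA relative to Control rats. Over all tested genes these shares were 7.06% and 3.55%, 6.01% and 6.42%, and 11.9% and 10.6%. The median log2 fold changes were -0.26, -0.04 and -0.25. Relative to the mean of the 9 rats, the medians by rat were -0.19, -0.07 and 0.48 in A1, A2 and A6. Those of the separated rats ran from -0.38 in C10 to 0.18 in C16. The part of A6 in the medians against Control rats was not tested. The 4 genes with the smallest p in any comparison were Cdkn1a, Dusp1, Lcn2 and Plin4. Cdkn1a, a cell cycle inhibitor, had 6.21, 7.62 and 18.2 CPM in A1, A2 and A6, 10.1 to 11.02 CPM in the MS rats and 4.83 to 6.12 CPM in the MS+EA rats. The MS+EA rats were thus below all others, and A6 again the highest (edgeR adjusted p = 0.275 relative to MS rats and 0.0949 relative to Control rats). Dusp1, a phosphatase that switches off MAP kinases, had 97.7, 84.8 and 61.3 CPM on average in Control, MS and MS+EA rats (edgeR adjusted p = 0.102 for MS+EA relative to Control rats). Lcn2, a secreted iron-binding protein, rested on 2 to 25 counts per rat (edgeR adjusted p = 0.11 in that comparison). Plin4, a lipid droplet protein, had 10.1, 7.57 and 7.17 CPM on average (edgeR adjusted p = 0.132 in that comparison).

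**Figure D3:**
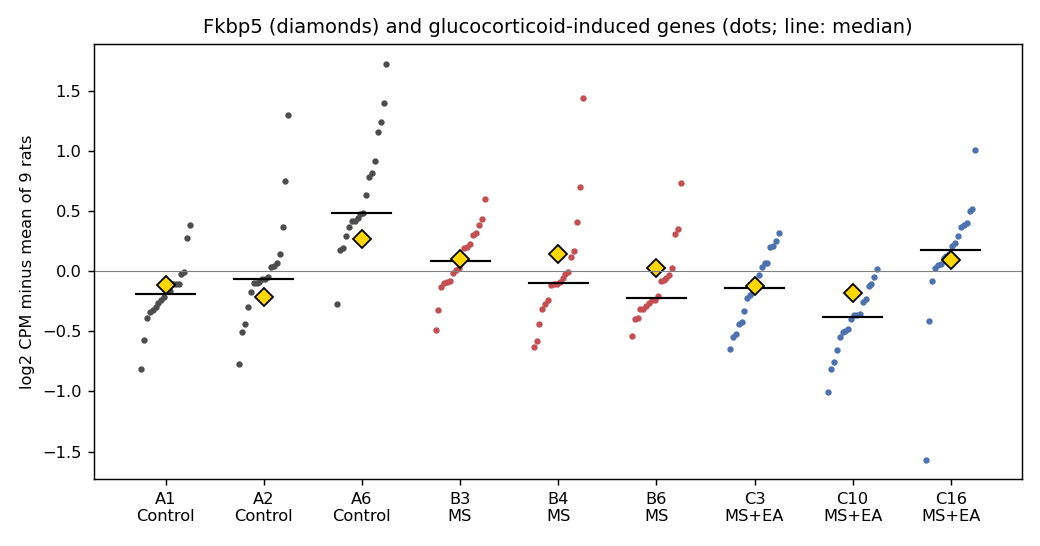
Log2 CPM minus the mean of the 9 rats for Fkbp5 (diamonds) and the 18 tested glucocorticoid-induced genes (dots, with their median as a line), by rat. A6 carries the highest median, 0.48, and the highest Fkbp5, and C10 the lowest median, -0.38.

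Hsd11b1, the enzyme that regenerates active corticosterone inside cells, was lower in MS+EA than in MS rats without passing the adjusted threshold. It had 32.7, 26.5 and 30.03 CPM in the Control rats, 37.5, 32.5 and 31.8 CPM in the MS rats and 27.1, 22.8 and 31.5 CPM in the MS+EA rats. The MS+EA rats lay below the MS rats with a gap of 31.5 to 31.8 CPM between the nearest rats. The log2 fold change was -0.32 in MS+EA relative to MS rats (SE 0.126, unadjusted p = 0.0239, edgeR adjusted p = 0.329). Between MS and Control rats it was 0.19 (95% interval -0.08 to 0.46, edgeR adjusted p = 0.627). Both ranges overlapped that of the Control rats.

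Crh, the peptide itself, rested on the fewest counts of the 8 genes. It had 3.27, 3.72 and 2.55 CPM in the Control rats, from 61, 61 and 41 counts. Among the MS rats, B3 had 1.11, B4 had 2.69 and B6 had 2.04 CPM, from 19, 43 and 34 counts, and the MS+EA rats had 2.84, 2.35 and 1.27 CPM, from 41, 35 and 16 counts. The Control mean was the highest, but B4 and C3 reached into the Control range. The log2 fold change of Crh between MS and Control rats was -0.71 with a 95% interval from -1.48 to 0.06 (edgeR adjusted p = 0.501), a wider interval than for any other member in that comparison. Between MS+EA and Control rats it was -0.55 (95% interval -1.32 to 0.22, edgeR adjusted p = 0.388), and in MS+EA relative to MS rats 0.16 (95% interval -0.64 to 0.96). The intervals hold both counting error and the spread between rats, and they include both 0 and changes past 1.5-fold. The coefficients of variation of CPM, which also hold both, were 18.6% in Control, 40.8% in MS and 37.3% in MS+EA rats.

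Traces of hypothalamic peptides differed between the libraries and were set beside Crh, since hypothalamic neurons also make it. B4 held 503 counts of Avp (vasopressin) and 258 of Oxt (oxytocin). A1 held 29 and 25, and B3, which had the lowest Crh of all 9 rats, held 27 and 14. The remaining rats held 0 to 15 counts of Avp and 0 to 4 of Oxt. B4 had the highest Crh of the MS rats, and A2, with 3 counts of Avp and 2 of Oxt, the highest of all 9 rats. The part of hypothalamic RNA in the values of Crh was not tested. Without B4 the log2 fold change of Crh in MS relative to Control rats was -1.01 (edgeR adjusted p = 0.615), without A1 it was -0.69, and without B3, the rat with the lowest Crh, it was -0.43. The value for MS+EA relative to Control rats ran from -0.79 without C3 to -0.29 without C16. The summed level of 24 hypothalamic and other subcortical markers was 260 to 288 CPM in Control rats, 236 to 331 CPM in MS rats and 271 to 288 CPM in MS+EA rats. Of these markers Slc6a4, Isl1 and Six3 had at most 3 counts in every rat.

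Crhr1, the receptor for CRH on cortical neurons, had 18.3, 19.4 and 19.9 CPM in the Control rats, 17.7, 17.4 and 16.2 CPM in the MS rats and 19.4, 16.4 and 13.8 CPM in the MS+EA rats. The MS rats were all below the Control rats, and the MS+EA rats spread from the Control range to the lowest value of all. The log2 fold change was -0.17 between MS and Control rats (95% interval -0.44 to 0.10, edgeR adjusted p = 0.674) and -0.22 in MS+EA relative to Control rats (95% interval -0.49 to 0.06, edgeR adjusted p = 0.339). The latter ran from -0.34 without C3 to -0.10 without C16.

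Crhbp, which binds free CRH, had 16.2, 15.5 and 18.8 CPM in the Control rats, 14.1, 18.7 and 21.3 CPM in the MS rats and 13.9, 14.3 and 21.1 CPM in the MS+EA rats. All 3 groups overlapped, and the log2 fold changes were 0.10 in MS relative to Control rats (95% interval -0.29 to 0.49) and -0.14 in MS+EA relative to MS rats (95% interval -0.54 to 0.25). The ratio of Crhbp to Crh counts was 4.16 to 7.39 in the Control rats, 6.95 to 12.7 in the MS rats and 4.88 to 16.6 in the MS+EA rats. The highest ratio belonged to C16, which had the second lowest Crh and the second highest Crhbp of the 9 rats.

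Crh and Crhbp are transcripts of cortical interneurons, so the markers of these cells were counted beside them. Of 17 interneuron markers 16 were tested, and 0 passed both thresholds in any comparison. Those with an unadjusted p under 0.05 were 0 higher and 1 lower in MS relative to Control rats, and 0 higher and 3 lower in both comparisons of MS+EA rats. The shares of all tested genes that were lower at this p were 3.55%, 6.42% and 10.6%. The summed level of the 17 markers was 1043 to 1115 CPM in Control rats, 1007 to 1169 CPM in MS rats and 918 to 1147 CPM in MS+EA rats. Its part in the values of Crh and Crhbp was not tested.

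**Figure D4:**
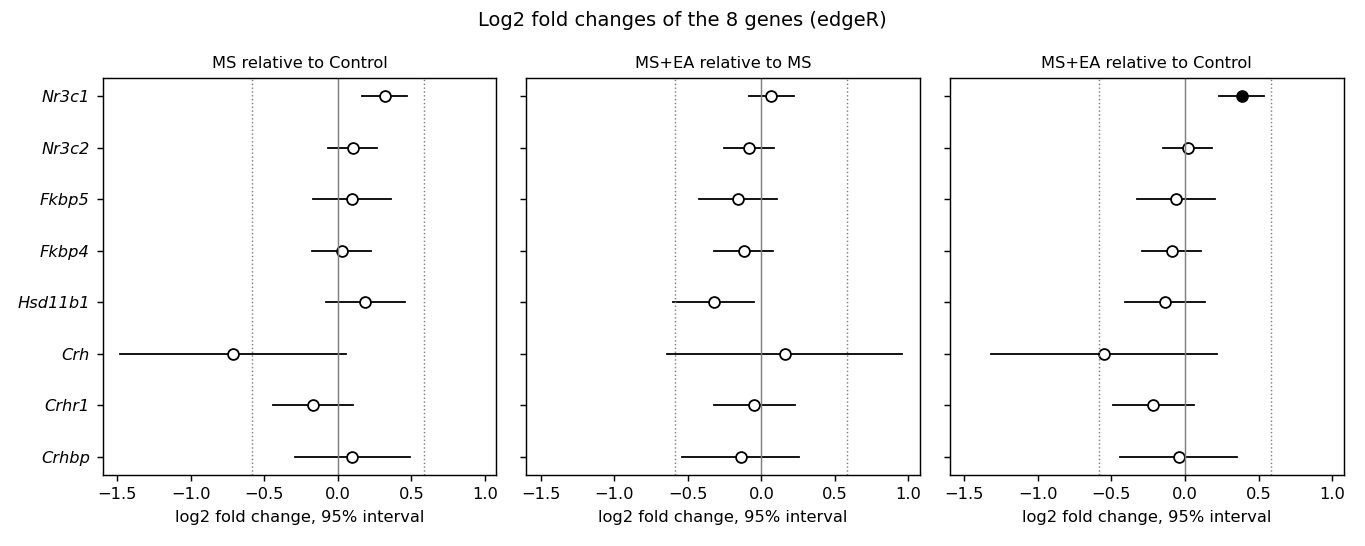
Log2 fold changes of the 8 genes from edgeR with 95% intervals in the 3 comparisons, with dotted lines at a fold change of 1.5 in either direction and filled circles at an adjusted p under 0.05. The only filled circle is Nr3c1 in MS+EA relative to Control rats at 0.39, and the widest intervals are those of Crh.

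Around the receptors, 13 genes of the chaperone complex were tested. None passed both thresholds, and Ppid passed the adjusted p alone in MS+EA relative to Control rats, as did 5.4% of all tested genes. Ppid, the cyclophilin Cyp40 of the Hsp90 complex, had 26.4, 32.8 and 29.8 CPM in the Control rats, 33.4, 34.5 and 34.1 CPM in the MS rats and 38.2, 41.1 and 38.2 CPM in the MS+EA rats. Ppid rose 0.40 on the log2 scale between Control and MS+EA rats (SE 0.0928, edgeR adjusted p = 0.0303). The 3 groups of Ppid did not overlap, an ordering of Control below MS below MS+EA that 0.938% of the tested genes showed. Ptges3, the p23 co-chaperone, had 117, 142 and 155 CPM on average, without passing the threshold in MS+EA relative to Control rats (log2 fold change 0.41, edgeR adjusted p = 0.0657). Hsp90aa1, an inducible Hsp90, had 34.1, 41.2 and 38.7 CPM and did not pass the adjusted threshold. At an unadjusted p under 0.05, 2 of the 13 were higher and 0 lower in MS relative to Control rats, 1 and 0 in MS+EA relative to MS rats, and 2 and 1 in MS+EA relative to Control rats, beside 7.06% and 3.55%, 6.01% and 6.42%, and 11.9% and 10.6% of all tested genes. Median log2 fold changes of the list were 0.02, -0.01 and 0.08.

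Of the 11 coregulators that receptors recruit to DNA, all were tested and 0 passed an adjusted p under 0.05. The lowest p belonged to Carm1, an arginine methyltransferase, with 94.1, 88.8 and 82.5 CPM on average in Control, MS and MS+EA rats (edgeR adjusted p = 0.113 for MS+EA relative to Control rats). Ncoa1, the coactivator SRC-1, had 295, 303 and 272 CPM (edgeR adjusted p = 0.322 for MS+EA relative to MS rats). Smarca4, a chromatin remodelling ATPase, had 168, 162 and 156 CPM, and the corepressor Ncor1 had 364, 383 and 384 CPM. The count at an unadjusted p under 0.05 was 0 in MS relative to Control rats and 1 lower in each comparison of MS+EA rats, where 6.42% (relative to MS) and 10.6% (relative to Control) of all tested genes were lower. Median log2 fold changes were -0.04, 0.00 and -0.01.

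Among 11 genes of corticosteroid supply and metabolism, 6 were tested, and 0 passed both thresholds. Abcb1a is an efflux pump that limits entry of some corticosteroids across the blood-brain barrier, and transport of corticosterone was not measured. Abcb1a had 61.6, 52.7 and 53.5 CPM in the Control rats. The MS rats had 72.9, 76.1 and 65.1 CPM, and the MS+EA rats 70.5, 73.6 and 80.1 CPM. As for Nr3c1, the 6 separated rats all stood above the Control rats. Higher without overlap than Control rats were 10% (MS) and 13% (MS+EA) of all tested genes, and the share with both was not counted. Abcb1a rose in MS+EA relative to Control rats (log2 fold change 0.42, SE 0.0883, edgeR adjusted p = 0.0224). That rise met the adjusted p alone, as did 5.4% of all tested genes. The value for MS against Control rats was 0.35 (SE 0.0880, edgeR adjusted p = 0.164). Of the 8 vascular markers, 8 were above 0 in MS and 7 in MS+EA relative to Control rats, with summed levels of 172 to 190 CPM in Control, 213 to 249 CPM in MS and 182 to 227 CPM in MS+EA rats. Tek, an endothelial receptor, and Vtn, a pericyte marker, did not overlap with Control rats in either group, with log2 fold changes of 0.55 and 0.67 in MS rats (edgeR adjusted p = 0.108 and 0.273) and of 0.30 and 0.51 in MS+EA rats (edgeR adjusted p = 0.119 and 0.187). Among the MS rats, Vtn was at 29.3 CPM in B4 and at 15.6 and 17.6 CPM in B3 and B6. Cldn5, a tight junction protein, was higher without overlap in MS rats (0.30, edgeR adjusted p = 0.171). It overlapped with Control rats in MS+EA rats (0.04, edgeR adjusted p = 0.793). The part of the vascular markers in the values of Abcb1a was not tested. Akr1c14, a hydroxysteroid dehydrogenase with close relatives whose reads could be shared, had 13 to 27 counts in the Control rats and 27 to 164 in the separated rats. It did not pass the adjusted threshold in MS (log2 fold change 2.12, edgeR adjusted p = 0.201) or MS+EA rats (1.97, edgeR adjusted p = 0.0779) relative to Control rats. Srd5a1, a steroid reductase, had 14.6, 11.8 and 13.2 CPM on average, and Star, which carries cholesterol into mitochondria, had 6 to 29 counts per rat. Hsd11b2, Serpina6, Cyp11a1 and Cyp21a1 had at most 5 counts in every rat. An unadjusted p under 0.05 was reached by 2 of the 6, both higher, in each of the comparisons with Control rats and by 0 in MS+EA relative to MS rats, where 7.06% (MS) and 11.9% (MS+EA) of all tested genes were higher than in Control rats at this p. Median log2 fold changes were 0.02, 0.05 and 0.04.

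Of 10 other peptides and receptors of the CRH family and the pituitary axis, 4 were tested and 0 passed an adjusted p under 0.05. Adcyap1, the peptide PACAP, had 29.7 ± 2.80, 32.3 ± 3.01 and 24.4 ± 1.95 CPM (SD, n = 3) in Control, MS and MS+EA rats. The MS+EA rats were below all other rats, and the difference from MS rats did not pass the adjusted threshold (log2 fold change -0.40, SE 0.107, edgeR adjusted p = 0.226). Its receptor gene Adcyap1r1 had 231, 221 and 203 CPM, and Crhr2, the other CRH receptor, had 8 to 31 counts per rat. Avp owed its mean in MS rats to B4, as given above. Ucn3 and Mc2r had at most 3 counts in every rat, Ucn, Ucn2 and Avpr1b at most 6, and Pomc 2 to 15. By unadjusted p under 0.05 there was 1 higher in MS relative to Control rats and 2 lower in each comparison of MS+EA rats, where 7.06%, 6.42% and 10.6% of all tested genes moved in the same direction at this p. The 1 higher gene was Avp, which together with Adcyap1 also made up the 2 lower in MS+EA relative to MS rats. B4 held 503 counts of Avp, against 0 to 29 in every other rat, so both entries of Avp hang on that library. Median log2 fold changes of the 4 tested genes were 0.03, -0.26 and -0.23.

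Of 21 genes that carry the signal of CRH receptors, 19 were tested, and Creb1 was the only one with an adjusted p under 0.05 in any comparison. Creb1, the cAMP-responsive transcription factor, had 69.2, 63.0 and 65.8 CPM in the Control rats, 87.6, 94.8 and 86.8 CPM in the MS rats and 87.9, 96.8 and 88.0 CPM in the MS+EA rats. All separated rats stood well above the Control rats, and the MS and MS+EA ranges overlapped. Creb1 rose in MS+EA relative to Control rats (log2 fold change 0.46, SE 0.0721, edgeR adjusted p = 0.00795). Its rise passed the adjusted p alone, as did 5.4% of all tested genes in that comparison, and stayed below the fold change threshold. Between MS and Control rats the value was 0.44 (SE 0.0718, edgeR adjusted p = 0.0578), which passed neither threshold. Between MS+EA and MS rats it was 0.02. Crtc1, a coactivator of Creb1, had 15.3, 13.2 and 10.8 CPM on average (edgeR adjusted p = 0.0545 for MS+EA relative to Control rats), and Arrb1, which desensitizes the receptors, had 15.7, 13.4 and 10.8 CPM (edgeR adjusted p = 0.0592). Prkaca, a catalytic subunit of protein kinase A, had 150, 146 and 133 CPM. Of the 19, 2 were higher and 0 lower at an unadjusted p under 0.05 in MS relative to Control rats, 0 and 2 in MS+EA relative to MS rats, and 2 and 6 in MS+EA relative to Control rats. Shares of all tested genes, higher and lower, were 7.06% and 3.55%, 6.01% and 6.42%, and 11.9% and 10.6%. Median log2 fold changes were -0.01, -0.06 and -0.08. Gnas is listed at 0 to 3 counts in every rat and was not tested. How reads were assigned to genes is not given, so these counts were not read as absence of Gnas from the tissue.

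The genes whose log2 CPM followed a member most closely over the 9 rats were taken by Pearson correlation, as a description over rats that share libraries and groups. For Nr3c1 they were LOC100910106 (r = 0.979), Cast (r = 0.977), the gene of the calpain inhibitor calpastatin, and Crls1 (r = 0.971), the gene of cardiolipin synthase. Cast had log2 fold changes of 0.34 in MS and 0.41 in MS+EA relative to Control rats (edgeR adjusted p = 0.158 and 0.0194). For Fkbp5 the closest were Ppp1r13l, LOC100910237 and Stom (r = 0.933, 0.929 and 0.912), and for Crh they were Camk2d, LOC100911841 and LOC102548271 (r = 0.965, 0.941 and 0.931). Nr3c2 was followed by Pccb, Capza1 and Fancg (r = 0.969, 0.936 and 0.927), and Fkbp4 by Spata24, Prune and Mrp63 (r = 0.956, 0.923 and 0.913). Hsd11b1 was followed by Sema7a, Mras and Slc35f2 (r = 0.962, 0.947 and 0.944), Crhr1 by Slc38a7, Zfyve1 and Paxip1 (r = 0.962, 0.951 and 0.95), and Crhbp by LOC103690039, Mrps34 and Casc4 (r = 0.938, 0.929 and 0.923).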

How the data were processed

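Frontal cortex RNA of 9 male Wistar rats was freed of rRNA before sequencing on a HiSeq X instrument. The authors checked read quality with FastQC, aligned reads by HISAT2 2.0.4 against Rnor_6.0 (version and build from the submitters' processing notes) and deposited whole-number read counts per gene, without normalization. The counting program, its strand setting and the handling of reads with several locations are not given in the sources used here, so overlapping genes and close relatives can share reads.

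Groups came from the sample titles. Using edgeR 4.0.16 in R 4.3.3, genes were kept by filterByExpr (minimum count 10), scaled by TMM, and fitted in one quasi-likelihood model of all 9 rats with a mean per group. p values were adjusted by Benjamini-Hochberg over 16837 genes. The study's thresholds defined a call, namely 0.05 for the adjusted p and 1.5 for the fold change. The study's own EBSeq test was not run. The common biological coefficient of variation was 12.7%. The SE is |log2 fold change| over the root of the F statistic, and 95% intervals use the degrees of freedom of that statistic. Groups of 3 are too small for permutation of single values, so p values come from the edgeR model across genes.

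Alternatives were DESeq2 1.42.0, edgeR's likelihood ratio test, limma-trend (limma 3.58.1, log2 CPM with prior count 2), bias-adjusted deviances, RLE or total-count scaling, looser and stricter count filters (1 read in total, 10 in every rat), fits without the uninvolved group, a call by adjusted p only, and omission of each rat. Procedures were tested on simulated data. The members and all gene lists, namely 6 pathway lists with 71 of 86 genes tested and 8 lists of cell markers, were chosen with earlier results of these data known. Named from each pathway list were the up to 4 tested genes with the smallest p in any comparison, of which 1 is not reported here. From each member's 16836 possible partners, the 3 with the highest Pearson correlation were named. Promoter sequences are from RefSeq (GRCr8) and covered 5 of the 8 members. Gene lengths were not available for the counted transcripts, so levels were not compared between genes.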

Additional observations from a re-analysis of the deposited data

How the results depend on the processing

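No paired analysis was possible because each rat belongs to 1 group only and the replicate names of the groups do not match. Over 432 refits of the members' log2 fold changes, 420 kept their direction and none crossed both thresholds, and all 12 that changed sign came from leaving out 1 rat. Of 48 mean CPM values under RLE or total-count scaling, 46 moved by less than 1 SD. The count of genes past both thresholds in MS relative to Control rats was 4, and became 70 with DESeq2, 119 with the likelihood ratio test, 207 with at least 1 count and 11 with the 6 rats compared. Without 1 rat it lay between 2 (without A1 or without A2) and 22 (without B3), with 9 without C3 and 10 without C10. In MS+EA relative to MS rats it was 3, and became 6 with DESeq2, 49 with the likelihood ratio test, 1 with bias-adjusted deviances, 72 with at least 1 count, 1 with the 6 rats compared and 0 with at least 10 counts in every rat, where 1951 genes had an unadjusted p under 0.05 by edgeR. Without 1 rat it lay between 1 (without A1 or without C16) and 4 (without C10). In MS+EA relative to Control rats it was 230, and became 418 with the likelihood ratio test, 469 with at least 1 count and 910 with no fold change threshold, and without 1 rat it lay between 71 (without A1) and 304 (without B4), with 121 without C10. The cause of these shifts was not tested.

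For the log2 fold changes that changed sign when 1 rat was left out, the ranges in MS relative to Control rats were -0.00079 to 0.25 for Fkbp5, -0.0747 to 0.0938 for Fkbp4 and -0.0395 to 0.25 for Crhbp. In MS+EA relative to MS rats they were -0.13 to 0.47 for Crh and -0.17 to 0.0631 for Crhr1. In MS+EA relative to Control rats they were -0.0491 to 0.0532 for Nr3c2, -0.15 to 0.10 for Fkbp5 and -0.26 to 0.0707 for Crhbp. With no change of sign, omission of 1 rat moved Hsd11b1 in MS+EA relative to MS rats from -0.32 to -0.21 (without C10) or -0.44 (without C16).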

Other observations

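The lists of cell markers describe the tissue around these genes. In MS+EA relative to Control rats, 5.4% of all tested genes had an adjusted p under 0.05. Of 15 markers of excitatory neurons and cortical layers, 2 did so in that comparison, both lower. The fitted log2 fold change there was above 0 for 10 of the 15 and below 0 for 5. Slc17a7, the vesicular glutamate transporter of cortical excitatory neurons, had a log2 fold change of -0.30 (edgeR adjusted p = 0.0207), and Fezf2, a factor of deep-layer projection neurons, one of -0.52 (edgeR adjusted p = 0.0363). Of 8 general neuron markers, 3 had a fitted log2 fold change above 0 there and 5 below 0. Among them Tubb3, a neuronal tubulin, was lower at -0.32 (edgeR adjusted p = 0.0252). Of 24 hypothalamic and other subcortical markers 16 were tested, and in that comparison 10 were above 0 and 6 below 0. In the same comparison Chrnb3, a nicotinic receptor subunit with 0 to 3 counts in the Control rats and 21 to 58 in the MS+EA rats, passed both thresholds (edgeR adjusted p = 0.0329), and Hap1 was lower at -0.41 (edgeR adjusted p = 0.0252).

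None of the 8 markers each of astrocytes, microglia, oligodendrocytes and vessels passed an adjusted p under 0.05 in edgeR. In MS relative to Control rats the unadjusted p was under 0.05 for 0 astrocyte, 0 microglial and 0 oligodendrocyte markers and for 3 vascular markers, all higher. In MS+EA relative to MS rats it was so for 2 astrocyte, 1 microglial and 2 vascular markers, all lower, and for 1 oligodendrocyte marker, which was higher. In MS+EA relative to Control rats it was so for 1 astrocyte and 2 microglial markers, all lower, 0 oligodendrocyte markers, and 2 vascular markers, both higher. Of all tested genes, 7.06% were higher and 3.55% lower at this p in MS relative to Control rats. The shares were 6.01% and 6.42% in MS+EA relative to MS rats, and 11.9% and 10.6% in MS+EA relative to Control rats. In MS relative to Control rats the fitted log2 fold change was above 0 for 8 of 8 vascular, 6 of 8 astrocyte, 0 of 8 microglial and 0 of 8 oligodendrocyte markers, where 49.7% of all tested genes were above 0. The numbers for MS+EA relative to MS rats were 1, 2, 2 and 8 in the same order (50.1% of all tested genes), and in MS+EA relative to Control rats they were 7, 3, 1 and 8 (50.9%). The oligodendrocyte markers had median log2 fold changes of -0.23, 0.40 and 0.15 in these comparisons. Npy, listed among the interneuron markers, had 2 to 13 counts per rat and was not tested. As for Gnas, these counts were not read as the level of Npy in the tissue.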
